A study of Rattus norvegicus with 13 samples.

Results

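The genes described here are the glucocorticoid receptor axis of the brain, given by 10 genes: the receptors Nr3c1 and Nr3c2, the enzyme Hsd11b1, the receptor co-chaperones Fkbp5 and Fkbp4, and the target genes Sgk1, Tsc22d3, Klf9, Errfi1 and Ddit4. Fkbp5 is itself a target, so the targets number 6. Every probe set of the array whose only gene symbol in the platform annotation is one of these was taken, which gave 1 probe set for each of the 10 genes, out of 14506 genes that the array names. The array reads each transcript with several short probes, which together form a probe set with a single value.

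The samples were 13 brains without the cerebellum from male Fischer F344 rats 15 months old, 1 array each. In 6 of them, the maternal fructose group, the mother had eaten a high fructose diet through gestation and lactation, from day 1 of gestation; in the other 7, the maternal control group, she had eaten a control diet. All offspring were weaned on day 20 and then ate chow, so neither group ate fructose as adults. Litters are not named in the labels, and nothing there says that every sample is another animal, so p-values cover only the variation among these 13 samples, part of which may be technical. Whole brain mixes regions and cell types, and in such bulk tissue fewer cells of a type and less RNA per cell cannot be told apart.

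Glucocorticoids, chiefly corticosterone in the rat, enter cells and bind a pair of nuclear receptors. The mineralocorticoid receptor Nr3c2 binds them tightly and is abundant in the hippocampus, and the glucocorticoid receptor Nr3c1 is widespread and is filled when hormone is high. Hsd11b1 regenerates active hormone inside the cell from its inert keto form. The unbound glucocorticoid receptor sits in a complex with Hsp90, where Fkbp5 lowers its affinity for hormone and Fkbp4 favours its transport to the nucleus. Bound receptor switches on Fkbp5, which closes a short feedback loop, and a set of genes that includes the kinase Sgk1, the leucine zipper protein Tsc22d3 (also called GILZ), the zinc finger factor Klf9, the EGF receptor inhibitor Errfi1 and the mTOR inhibitor Ddit4. Several of these genes also answer to other signals, among them growth factors, osmotic stress and low oxygen.

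The arrays had medians of 7.99 to 8.07 log2 units, taken over the 15633 probe sets that carry a gene, and pairs of arrays correlated at 0.985 to 0.998. Control replicates 1 and 2 had the narrowest spread of values, with interquartile ranges of 2.19 and 2.15. The tissue label was checked against marker lists, as means of log2 signals over the genes of a list. The 8 neuron markers averaged 11.84 in fructose and 11.80 in control brains, and the 8 astrocyte markers 11.01 and 10.96. The 7 of 8 oligodendrocyte and myelin markers on the array averaged 10.59 and 10.51. The 8 cerebellum markers averaged 7.56 in fructose and 7.55 in control brains, with means over all arrays from 5.64 for Gabra6, a receptor subunit of cerebellar granule cells, to 9.62 for the calcium-binding protein gene Calb1. Whether any of these signals came from cerebellum was not tested. The deposited table holds no detection calls, so how far a signal as dim as that of Gabra6 stood above background is unknown.

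The result that the data turn on is how the target genes moved from brain to brain. The levels of Sgk1, Tsc22d3, Errfi1 and Ddit4 rose and fell together over the 13 arrays, with positive correlations in each diet group. In the fructose group Tsc22d3 varied little apart from fructose replicate 1, at 8.30 where the other fructose brains ran from 8.03 to 8.06. No such relation passed the test for Klf9 or for Nr3c1 with these 4. None of the 10 genes passed the test between the diets. The promoters of these 4 co-varying genes are shown first, because a shared control element is the usual first question about genes that move together. They run from 250 bases before to 50 bases after the RefSeq start of the gene on the rat build GRCr8, 5′ to 3′ along the gene, with matches to a TATA box or GC box in capitals.

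Sgk1 promoter, chr1:24807182-24807481, minus strand: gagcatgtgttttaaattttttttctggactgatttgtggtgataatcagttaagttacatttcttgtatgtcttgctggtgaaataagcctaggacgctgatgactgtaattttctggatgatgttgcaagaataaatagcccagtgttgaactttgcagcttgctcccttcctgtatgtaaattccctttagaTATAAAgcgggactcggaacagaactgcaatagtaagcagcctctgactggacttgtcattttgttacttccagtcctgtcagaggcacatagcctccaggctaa
Tsc22d3 promoter, chrX:109066340-109066639, minus strand: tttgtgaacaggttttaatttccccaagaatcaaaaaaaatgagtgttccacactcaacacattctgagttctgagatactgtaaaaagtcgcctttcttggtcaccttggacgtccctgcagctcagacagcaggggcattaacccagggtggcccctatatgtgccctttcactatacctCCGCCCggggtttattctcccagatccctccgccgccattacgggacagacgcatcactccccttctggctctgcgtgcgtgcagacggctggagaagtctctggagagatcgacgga
Errfi1 promoter, chr5:166606591-166606890, plus strand: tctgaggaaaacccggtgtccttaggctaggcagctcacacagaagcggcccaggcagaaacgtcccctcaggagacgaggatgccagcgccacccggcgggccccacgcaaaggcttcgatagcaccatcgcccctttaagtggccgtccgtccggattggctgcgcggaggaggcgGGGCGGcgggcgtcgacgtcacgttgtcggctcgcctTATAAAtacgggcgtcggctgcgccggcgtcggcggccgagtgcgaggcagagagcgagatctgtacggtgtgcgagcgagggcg
Ddit4 promoter, chr20:28436988-28437287, minus strand: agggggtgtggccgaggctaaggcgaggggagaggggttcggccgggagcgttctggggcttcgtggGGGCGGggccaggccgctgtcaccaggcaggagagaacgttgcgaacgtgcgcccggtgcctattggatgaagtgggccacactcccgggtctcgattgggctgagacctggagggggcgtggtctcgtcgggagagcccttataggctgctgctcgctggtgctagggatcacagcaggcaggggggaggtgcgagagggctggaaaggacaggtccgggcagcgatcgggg

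Promoters of 8 of the 10 genes were found in the RefSeq promoter table, and those of Nr3c2 and Hsd11b1 were not analysed here. The windows were searched on both strands for the palindromic glucocorticoid response element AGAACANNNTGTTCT, for its 6-letter arm AGAACA, which is contained in the palindrome, for the cAMP response element TGACGTCA, the TATA box TATAAA and the GC box GGGCGG. None of the 8 windows held the palindrome or its arm. Of all 33469 rat promoters of this length, 5 (0.0149%) held the palindrome and 20.7% the arm. The absence says only that these letters are not in these 300 bases. The TATA box was found in Sgk1, at bases -55 to -50 from the start, and in Errfi1, at -35 to -30, against 14.2% of all promoters. The GC box was in 6 of the 8 (Nr3c1, Fkbp5, Fkbp4, Tsc22d3, Errfi1 and Ddit4), against 33.1% of all promoters, and Fkbp5 held 4 copies. The cAMP element was in none of the 8 and in 1.83% of all promoters. The GC content differed widely among the co-varying genes, at 40.7% in Sgk1, 52.0% in Tsc22d3, 67.3% in Errfi1 and 68.3% in Ddit4.

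Among the receptors, Nr3c1 had log2 signals from 9.79 to 10.06 with a median of 9.99 in fructose brains, and from 9.68 to 9.92 with a median of 9.90 in control brains. Most fructose values lay at the upper end of the range, with 5 of 6 above the control mean, but the groups overlapped. The mean was 9.96 ± 0.10 (SD, n = 6) in the fructose group and 9.86 ± 0.09 (SD, n = 7) in the control group. The difference of 0.10 ± 0.05 (SE) had a 95% interval from -0.01 to 0.22, which corresponds to 0.991 to 1.16-fold. Its unadjusted p was 0.0786 and its adjusted p 0.9998 in limma, and the exact 2-sided permutation test over all 1716 splits of the arrays gave p = 0.0769. Without fructose replicate 3 the limma interval was 0.02 to 0.25 (unadjusted p = 0.0205, adjusted 0.9999), and with array weights the unadjusted p was 0.049 (adjusted 0.971). Some other settings gave a larger unadjusted p. Of those listed next, only the replicate block did not lower the difference, which was 0.11 there. The unadjusted limma p was 0.1707 after renewed quantile normalization, 0.1672 after cyclic loess and 0.1515 with the replicate number as a block. It was 0.1686, 0.1675 and 0.1633 without control replicate 7, fructose replicate 7 and fructose replicate 1.

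Nr3c2 ran from 9.29 to 9.84 (median 9.49) in fructose brains and from 9.18 to 10.22 (median 9.39) in control brains. The control range was set by 1 brain, control replicate 3 at 10.22, with the next control value at 9.55. The diet difference was 0.05 ± 0.14 (SE), with an interval from -0.24 to 0.35. Nr3c2 was among the more variable genes of the array: 96.6% of the 15633 probe sets had a smaller residual SD, the spread within diet groups, than its 0.29. For Nr3c1 the same share was 31.7%.

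Hsd11b1 ran from 8.77 to 9.02 (median 8.93) in fructose brains and from 8.62 to 9.06 (median 8.90) in control brains, with a difference of 0.04 ± 0.07 (SE). The fructose values all lay inside the control range. Fkbp4 was the steadiest of the 10, with a residual SD of 0.08, and ran from 9.04 to 9.22 (median 9.13) in fructose and from 9.07 to 9.35 (median 9.13) in control brains. Its difference was -0.02 ± 0.05 (SE), with a narrow interval from -0.13 to 0.08 (0.916 to 1.06-fold).

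Fkbp5, the co-chaperone that the receptor induces, ran from 8.15 to 8.69 (median 8.52) in fructose brains and from 8.11 to 8.75 (median 8.28) in control brains. The control brains split widely, with 8.75 and 8.73 in control replicates 3 and 7 and 8.11 in control replicate 1. The difference was 0.09 ± 0.11 (SE), with an interval from -0.15 to 0.33. It was 0.0018 without control replicates 1 and 2. With 1 array left out it ran from 0.043 without control replicate 1 to 0.16 without fructose replicate 8, with 0.15 and 0.14 without control replicates 3 and 7 and 0.055 and 0.057 without fructose replicates 7 and 1.

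Sgk1 had the widest range of the 10 genes, 1.10 log2 units over the 13 arrays, and 98.1% of all probe sets had a smaller residual SD. It ran from 10.44 to 11.38 (median 10.78) in fructose brains and from 10.28 to 11.23 (median 10.64) in control brains. Each group held 1 brain well above the rest, fructose replicate 1 at 11.38 and control replicate 3 at 11.23. The difference was 0.12 ± 0.17 (SE), with an interval from -0.24 to 0.48 (0.848 to 1.40-fold). With 1 array left out it ran from 0.0071 without fructose replicate 1 to 0.21 without control replicate 3. It was also 0.19 without fructose replicate 4, 0.054 and 0.057 without control replicates 4 and 5, and 0.27 with array weights.

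Tsc22d3 was much steadier, from 8.03 to 8.30 (median 8.06) in fructose brains and from 7.96 to 8.19 (median 8.01) in control brains. The highest brain of each group was again fructose replicate 1 and control replicate 3. The deposited value of Tsc22d3 was identical on 3 of the fructose arrays, and 41.3% of all probe sets tested shared a value between at least 2 arrays. Its difference was 0.06 ± 0.05 (SE), and ran from 0.015 without fructose replicate 1 to 0.082 without control replicate 3.

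Errfi1 ran from 9.79 to 10.19 (median 9.88) in fructose and from 9.60 to 10.03 (median 9.86) in control brains, with a difference of 0.07 ± 0.08 (SE). The Errfi1 difference ran from 0.016 without fructose replicate 1 to 0.10 without control replicate 7, was 0.033 and 0.037 without control replicates 4 and 2 and 0.035 without control replicates 1 and 2, and reached 0.14 with array weights. Ddit4 ran from 8.71 to 9.12 (median 8.85) in fructose and from 8.55 to 9.03 (median 8.86) in control brains, with a difference of 0.02 ± 0.08 (SE). For both genes fructose replicate 1 was the highest of all 13 brains. Klf9 ran from 9.05 to 9.69 (median 9.57) in fructose and from 9.25 to 9.59 (median 9.48) in control brains, with a difference of 0.03 ± 0.09 (SE), and its lowest brains were fructose replicate 4 and control replicate 8.

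**Figure D1:**
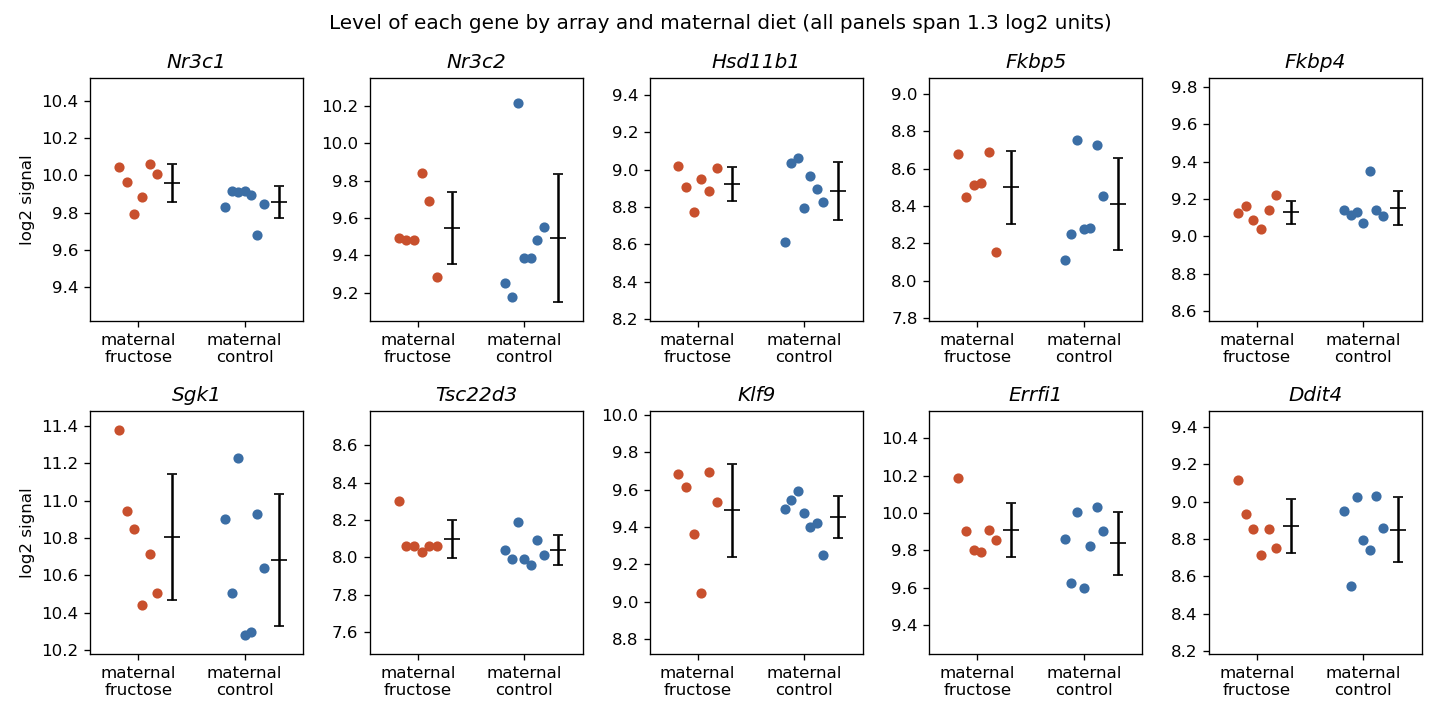
Log2 signal of the 10 genes, a panel each, with a point per array, maternal fructose (n = 6) left and maternal control (n = 7) right; the bar beside each group is the mean ± SD, and all panels span the same number of log2 units. The groups overlap for every gene, and the single high control point of Nr3c2 is control replicate 3 at 10.22.

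Over the whole array, limma called 0 of 15633 probe sets at an adjusted p under 0.05 (0%), with 348 (2.23%) at an unadjusted p under 0.05. Of the 10 genes, 0 were called, 0 had an unadjusted p under 0.05, and 0 had groups that did not overlap, which was the case for 0.0384% of all probe sets. The fructose mean was the higher one for 9 of the 10 genes, all but Fkbp4, against 54.1% of all probe sets. The median difference of the 10 was 0.0546, beside 0.0056 over all probe sets, and the differences ran from -0.02 to 0.12. Exact permutation p-values ran from 0.0769 for Nr3c1 to 0.831 for Ddit4. Without fructose replicate 1 the median of the 10 was 0.0156 and 7 of 10 had the higher fructose mean, and without control replicate 3 the median was 0.0909. The levels of Sgk1, Tsc22d3, Errfi1 and Ddit4 varied together, so their 4 signs are not separate observations. The 10 genes were also chosen with earlier results of these data known.

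The other genes of the pathway were counted by role, each by its probe set with the highest mean. Of 79 listed genes, 70 were on the array under a single symbol, and 0 were called in either direction. Among 11 genes of hormone supply and the stress hormone axis, the fructose mean was higher for 6 and lower for 5, with a median difference of 0.0047. Hsd11b2, which inactivates glucocorticoid, averaged 7.46 ± 0.11 in fructose and 7.53 ± 0.18 in control brains (SD, n = 6 and 7). H6pd, which supplies the cofactor of Hsd11b1, differed by 0.05 and Crh, the hypothalamic releasing hormone, by 0.01. Of 12 receptor chaperones 8 were higher and 4 lower, with a median of 0.0080. Hsp90aa1 and Hsp90ab1, the Hsp90 genes, differed by 0.0048 and -0.02, and Ptges3, the p23 co-chaperone, by 0.0046. Of 10 coregulators 6 were higher and 4 lower (median 0.0201), with the coactivators Ncoa1 and Ncoa2 at 0.08 and -0.02 and the corepressor Ncor1 at 0.02.

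Of 37 further target genes, the fructose mean was higher for 31 and lower for 6, against 54.1% higher of all probe sets. Their median difference was 0.0714, beside 0.0056 over all probe sets. Several of these genes varied together with Sgk1, Tsc22d3 and Ddit4, so the signs are not separate observations. The list was also chosen with earlier results of these data known. The number at an unadjusted p under 0.05 was 2 of 37, where the same share over the array was 2.23%, and these were Mertk and Tat, named here after their values were seen. Mertk, a receptor of phagocytosis, was 0.24 higher, and Tat, a liver enzyme that was dim here with means of 5.43 and 5.61, differed by -0.18. Dusp1, a phosphatase of MAP kinases, averaged 10.09 ± 0.19 in fructose and 9.95 ± 0.18 in control brains (SD, n = 6 and 7). Nfkbia, the NF-kappaB inhibitor, averaged 8.56 ± 0.19 and 8.40 ± 0.25, and the cell cycle inhibitor Cdkn1a 8.17 ± 0.13 and 8.06 ± 0.15. The clock gene Per1 differed by 0.02, the transcription factor genes Zbtb16, Bcl6 and Cebpd by 0.18, 0.12 and -0.01, the pyruvate dehydrogenase kinase Pdk4 by 0.10, and Txnip, an inhibitor of thioredoxin, by 0.09. None of these differences passed in limma after adjustment, with an adjusted p of 0.9998 for each.

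**Figure D2:**
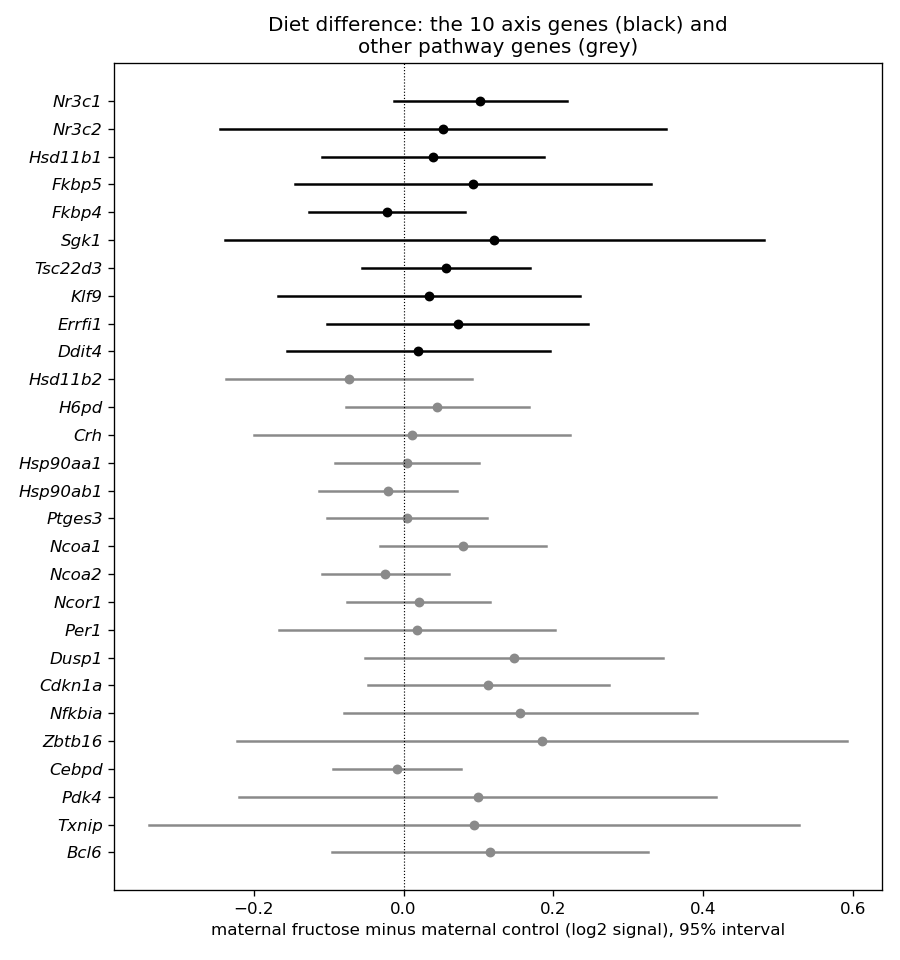
Difference in log2 signal, maternal fructose (n = 6) minus maternal control (n = 7), with its 95% interval from limma, for the 10 axis genes (black) and 18 other pathway genes (grey). Every interval reaches across 0, and the intervals of Sgk1, Zbtb16 and Txnip are wide.

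The targets were then set against each other over the 13 arrays, by Pearson's r and Spearman's rho with permutation p-values from 100000 resamples, adjusted over the 15 pairs of 6 targets. All 15 values of r were positive, with a median of 0.622, and 8 pairs passed an adjusted p of 0.05 (8 also by rho). The 6 pairs among Sgk1, Tsc22d3, Errfi1 and Ddit4 all passed. The 18 alternatives were other normalizations, group means removed, the mean over probe sets and arrays left out. The mean over probe sets repeats the main values, as each of these genes has 1 probe set. In every count out of 18 it is therefore no separate check. Over the alternatives these 6 pairs kept r between 0.697 and 0.928 and an adjusted permutation p of 0.0322 or less.

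Sgk1 and Tsc22d3 had r = 0.88 (permutation p = 1e-05, the smallest the resamples can give, and adjusted p = 0.00015; rho = 0.81, adjusted p = 0.00626). Within the groups r was 0.86 over the 6 fructose and 0.93 over the 7 control brains. Fructose replicate 1 stood apart in Tsc22d3, at 8.30 where the other fructose brains ran from 8.03 to 8.06. The r within the fructose group was not computed without that brain. Without the pair of brains farthest from the median of Sgk1, fructose replicate 1 and control replicate 3, r over both groups was 0.79 (permutation p = 0.00488, 11 arrays). Among 14505 other genes Tsc22d3 ranked 2 in its r with Sgk1, and Sgk1 ranked 1 for Tsc22d3.

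Sgk1 and Ddit4 had r = 0.85 (rho = 0.86, adjusted permutation p = 0.0014 for r and 0.00375 for rho), with 0.99 in fructose and 0.76 in control brains, and 0.74 without that pair of brains. Errfi1 and Ddit4 also had r = 0.85 (rho = 0.85, adjusted permutation p = 0.0014 and 0.00375), with 0.90 in fructose and 0.83 in control brains. Here leaving out the brains farthest in Errfi1, fructose replicate 1 and control replicate 4, gave 0.91. The remaining 3 pairs of these 4 genes had r from 0.77 to 0.82, and 0.64 to 0.68 without the 2 farthest brains (unadjusted permutation p from 0.021 to 0.0334, 11 arrays). For these 6 pairs r thus stayed positive, at an unadjusted p under 0.05, without the farthest brains.

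**Figure D3:**
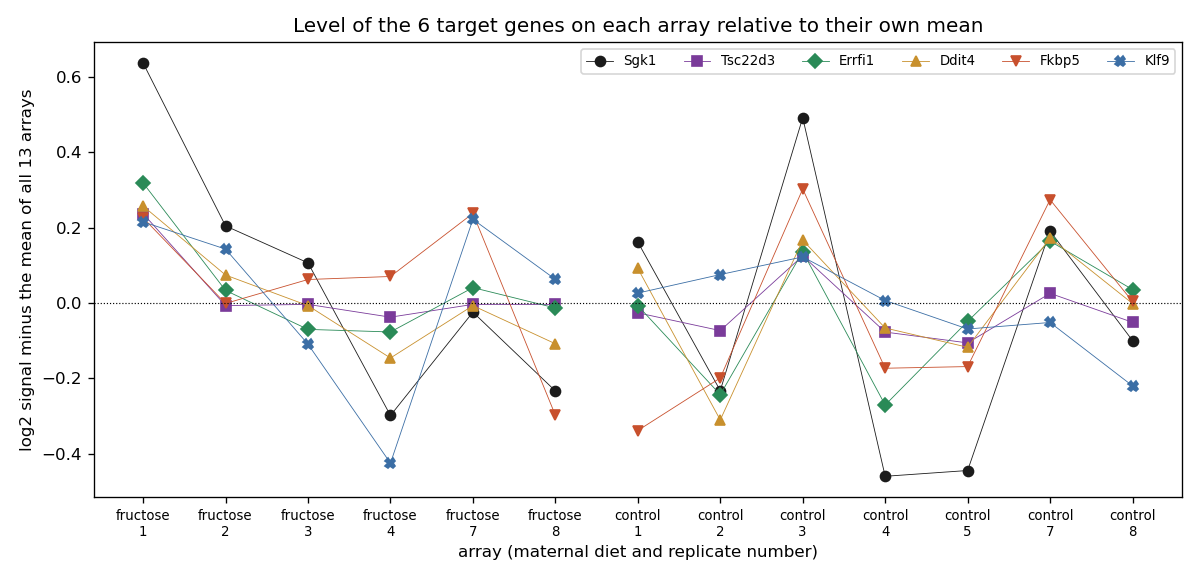
Log2 signal of the 6 target genes on each array minus the mean of that gene over all 13 arrays, fructose arrays left and control arrays right; the thin lines only join the points of a gene. In fructose replicate 1 and control replicate 3 all 6 genes lie above their means, in control replicate 5 all 6 lie below, and Klf9 drops to its lowest value in fructose replicate 4.

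The array that stood highest was fructose replicate 1, which held 1 of the top 2 values for 5 of the 6 targets. Sgk1 was 0.64 above its mean there, Errfi1 0.32, Ddit4 0.26 and Tsc22d3 0.24. Control replicates 3 and 7 held such values for 3 targets each. Control replicate 4 had 1 of the 2 lowest values for 3 targets, with Sgk1 0.46 below its mean. Control replicates 2 and 5 and fructose replicate 4 held such low values for 2 targets each. High values were thus found in both diet groups, while most of the lowest values fell in control brains.

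Fkbp5 had r from 0.58 to 0.64 with the same 4 genes. Its pairs with Tsc22d3 (r = 0.62) and Errfi1 (r = 0.64) passed with an adjusted permutation p of 0.0303 each, but the call was lost in 5 of 18 alternatives for Tsc22d3 (adjusted permutation p up to 0.0833) and in 8 of 18 for Errfi1 (up to 0.0755). The pairs with Sgk1 (r = 0.60) and Ddit4 (r = 0.58) did not, at 0.0528 and 0.0554. Without the 2 brains farthest in Fkbp5, control replicate 1 and fructose replicate 8, these 4 values of r were 0.75 to 0.82. Fkbp5 had r = 0.59 with the interquartile range of the arrays (unadjusted permutation p = 0.0336, adjusted over 6 targets 0.202), and its part in the pairs was not tested. The other 5 targets had r from -0.19 to 0.40 with that range.

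The r of Klf9 with the other targets ran from 0.11 with Fkbp5 to 0.47 with Sgk1, and 0 of its 5 pairs passed (adjusted permutation p from 0.138 to 0.718). With Errfi1 and Ddit4 it had r = 0.65 and 0.66 in fructose brains but -0.18 and -0.02 in control brains, and the difference between the groups was not tested. Of all genes on the array, 2.85% had r of at least 0.7 with Klf9. After removal of the group means, the 5 genes most like Klf9 among 7190 genes of at least median signal were Kif5a, a kinesin of axonal transport (r = 0.96), Atp2b2, a plasma membrane calcium pump (0.95), Scn1a, a sodium channel (0.95), Cabp1, a calcium-binding protein gene (0.95), and Lpcat4 (0.94). As the best of a search, these values are not comparable with those of the 5 fixed pairs. The search was not repeated without fructose replicate 4 and control replicate 8, the brains lowest in Klf9.

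The same search placed the co-varying genes next to each other. For Sgk1 it returned Tsc22d3, Scp2, Gpatch4, Ddit4 and Nfkbia (r from 0.83 to 0.89), and for Ddit4 it returned Nfkbia, Errfi1, Sgk1, Scp2 and Crtc2 (0.83 to 0.89). For Errfi1 the list was Mtf1, the metal-responsive factor, then Ddit4, Hmgn5b, Tsc22d3 and Sgk1 (0.81 to 0.88). Tsc22d3 was followed by Sgk1, Rad51d, Ptpn23, Kmt2e and Eps15 (0.83 to 0.89). The list of Fkbp5 shared none of these genes: Fbxo8, Hexim1, Tbc1d14, Cdc40 and Sec14l1 (0.85 to 0.86). Nr3c1 was most like Nefh, a neurofilament subunit, Pdcd7, Klhl42, Camk2g and the ion channel gene Hcn2 (0.87 to 0.91).

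Of the 37 further target genes of the pathway, 6 had r of at least 0.7 with Sgk1 (Pdk4, Nfkbia, Plekhf1, Per1, Pim3 and Gpd1), where 0.283% of all genes did. The number was also 6 for Tsc22d3 (Pdk4, Slc2a1, Gpd1, Nfkbia, Dusp1 and Plekhf1), against 0.496% of all genes. It was 4 for Ddit4 (Pdk4, Nfkbia, Per1 and Dusp1) and 3 for Errfi1 (Pdk4, Nfkbia and Plekhf1), against 0.228% and 0.234%. Only 1 further target reached it for Fkbp5 (Mt2A, 1% of all genes) and 1 for Klf9 (Cables1, 2.85%). These are descriptions over the same 13 arrays, without a test. The list of further targets was chosen with earlier results of these data known, so the shares are not independent support. Pdk4, which restrains the use of glucose by mitochondria, followed the 4 genes most closely, with r = 0.93 for Sgk1, 0.91 for Ddit4, 0.90 for Errfi1 and 0.85 for Tsc22d3. In fructose brains its r with Sgk1 was 0.95 and in control brains 0.91. Its highest value was 8.19 in fructose replicate 1, and its lowest 7.17 in control replicate 4.

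**Figure D4:**
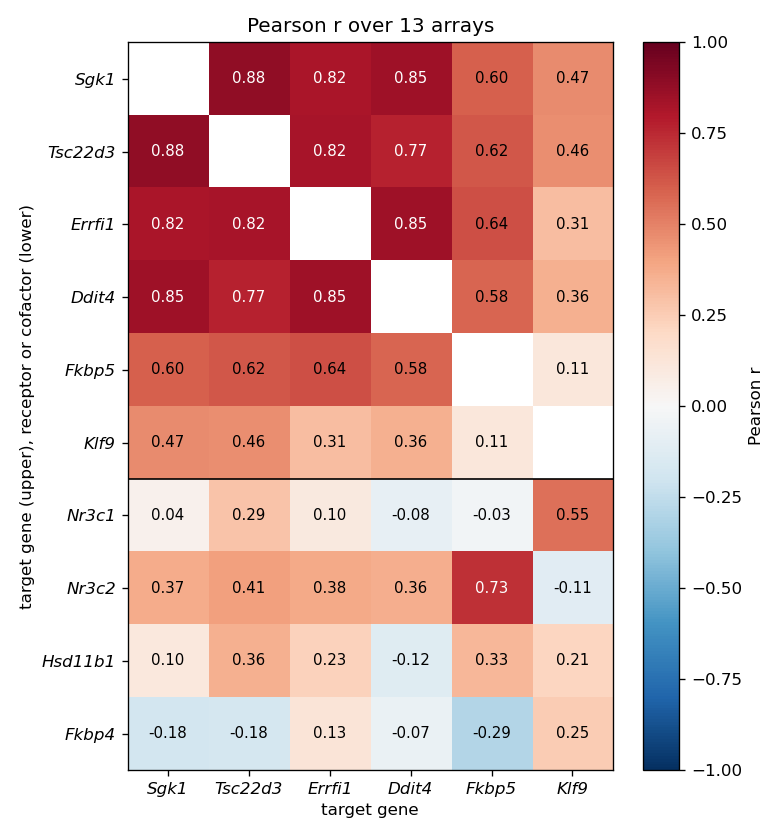
Pearson r over the 13 arrays for each pair of the 6 targets (upper 6 rows) and for the receptors and cofactors Nr3c1, Nr3c2, Hsd11b1 and Fkbp4 against the targets (lower 4 rows), on a colour scale from -1 to 1. The 4 by 4 block of Sgk1, Tsc22d3, Errfi1 and Ddit4 holds r from 0.77 to 0.88, and Klf9 reaches at most 0.47 with another target.

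The receptors and cofactors were set against the targets in 24 further pairs. The receptor Nr3c1 had r from -0.08 to 0.29 with Sgk1, Tsc22d3, Errfi1, Ddit4 and Fkbp5, none of which passed (adjusted permutation p from 0.817 to 0.927). Within the groups the values pointed in opposite directions, from 0.13 to 0.65 in fructose and from -0.62 to -0.23 in control brains, and this difference was not tested. Over both groups without the brains farthest in Nr3c1, control replicate 7 and fructose replicate 7, these r were 0.13 to 0.52. The unadjusted permutation p was then 0.0965 to 0.703 (11 arrays). With Klf9, Nr3c1 had r = 0.55 (adjusted permutation p = 0.621), while rho was 0.78 (adjusted permutation p = 0.0286).

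Nr3c2 and Fkbp5 were the pair of this family that passed by r, at 0.73 (adjusted permutation p = 0.0482; rho = 0.85, adjusted p = 0.0142). It was 0.62 in fructose and 0.78 in control brains, and 0.82 without the brains farthest in Nr3c2, control replicate 3 and fructose replicate 4. The call was lost in 14 of the 18 alternatives, which gave r from 0.65 to 0.80 and adjusted permutation p from 0.00864 to 0.467. With the other 5 targets Nr3c2 had r from -0.11 to 0.41 and no pair passed. None of the 6 pairs of Hsd11b1 passed (r from -0.12 to 0.36), and none of the 6 of Fkbp4 (r from -0.29 to 0.25).

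**Figure D5:**
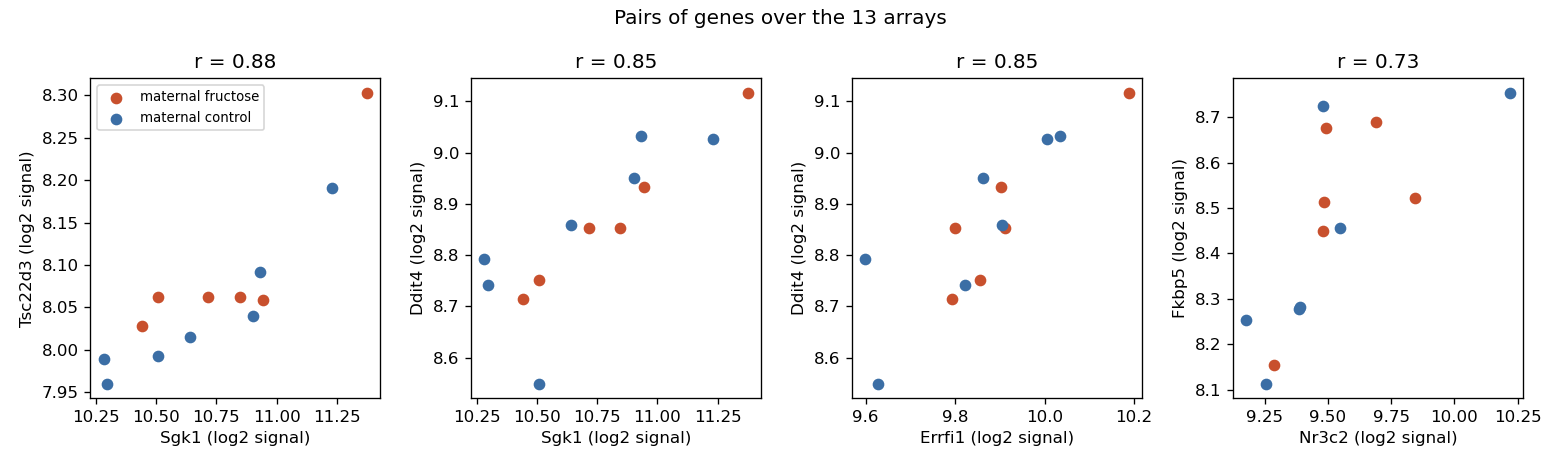
Log2 signals of 4 pairs of genes, with a point per array and maternal fructose and maternal control in different colours. Sgk1 with Tsc22d3 (r = 0.88), Sgk1 with Ddit4 (0.85) and Errfi1 with Ddit4 (0.85) have positive r in both groups. Fructose replicate 1 lies alone at the top in Tsc22d3, with the other fructose points from 8.03 to 8.06. Nr3c2 with Fkbp5 (0.73) has control replicate 3 alone at the right.

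Since the tissue is mixed, the 6 targets were also set against 11 marker lists of cell types, regions and neighbouring tissues (66 pairs). None passed after adjustment, and 5 had an unadjusted permutation p under 0.05. Sgk1 and Tsc22d3 had positive r with the oligodendrocyte and myelin list (r = 0.63 and 0.66, unadjusted permutation p = 0.0232 and 0.00907, adjusted 0.383 each), whose mean ran from 10.32 to 10.99 in fructose and from 10.15 to 10.95 in control brains. The highest value of that list in each group was in the brains high in these genes, fructose replicate 1 and control replicate 3, and without the 2 brains r was 0.25 and 0.16. Klf9 ran against the leptomeninges and fibroblast list (r = -0.57, adjusted permutation p = 0.527) and the cerebellum list (-0.65, adjusted 0.383), which became 0.16 and -0.18 without control replicate 8 and fructose replicate 4. These brains had the highest leptomeningeal means, at 8.82 in fructose replicate 4 and 8.68 in control replicate 8. Fkbp5 ran against the pituitary list (r = -0.64, adjusted permutation p = 0.383), all of whose 7 genes were on the array. For Nr3c2, the hippocampus and cortex list (5 of 8 genes measured) had r = 0.68 (unadjusted permutation p = 0.0176, adjusted over 11 lists 0.184), and 0.37 without control replicate 3 and fructose replicate 4. With the pituitary list Nr3c2 had r = -0.60 (unadjusted permutation p = 0.0334, adjusted over 11 lists 0.184) and rho = -0.72 (adjusted permutation p = 0.0576), and r = -0.77 without the same brains (unadjusted permutation p = 0.0033, 11 arrays). The pituitary list was dim, from 6.34 to 6.41 in fructose brains, and stood highest in control replicates 1 and 2, at 6.54 and 6.58. These arrays had the narrowest spread of values, and they held the lowest control values of Nr3c2 and Fkbp5. The part of cell make-up or array spread in these relations was not tested.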

How the data were processed

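RNA of rat brain without the cerebellum was measured on Affymetrix rat gene arrays from 100 ng of RNA, per the labels' protocols. The table deposited by the authors holds log2 signals for 29214 probe sets, made with RMA (background correction, normalization and probe summary) and R 3.0.1, per the submitters' processing notes. The annotation build is not given in the sources used here. RMA draws array distributions together, so a shift common to most genes would be removed.

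Groups were taken from the diet in the labels. All 15633 probe sets that carry a gene were fitted with limma 3.58.1 in R 4.3.3 (lmFit, eBayes), fructose minus control, with Benjamini-Hochberg adjustment at 0.05 and no filter on dim probe sets. Of these, 15310 have 1 gene symbol, and all 10 genes described carry the same symbol in the current RefSeq table. Genes with several probe sets were represented by the brightest in the correlations, computed in numpy 2.4.6. The number of arrays limits the precision. Scripts were tested on simulated data. Alternatives were other normalizations, filters, weights, variance models and samples left out.

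The members, the gene lists and the rule for named genes (a fixed set of pathway genes and the 5 genes most like a member) were chosen with earlier results of these data known. Crhr1 and Glul, also on that set, were not analysed here.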

Additional observations from a re-analysis of the deposited data

Results flagged for a closer look

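In 8 of 56 combinations of a gene and a group, 1 sample lay far from the nearest of the others relative to the range of its group (Dixon's 95% limit, which chance passes in about 1 of 20 groups, or 2.8 of 56). Fructose replicate 1 was the highest fructose sample for Tsc22d3, at 8.303 with the next at 8.062, and for Errfi1, at 10.188 with the next at 9.91. The same sample was the lowest fructose sample for Hsp90ab1, at 12.276 with the next at 12.378. Control replicate 3 was the highest control sample for Nr3c2, at 10.219 with the next at 9.55, and for the coactivator Ncoa1, at 10.634 with the next at 10.483. Control replicate 7 was the lowest control sample for Nr3c1 (9.681, next 9.831), control replicate 5 the highest for Fkbp4 (9.352, next 9.141), and control replicate 8 the lowest for the transcription factor gene Zbtb16 (8.609, next 9.447).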

How the results depend on the processing

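The count of called probe sets was 0 over the array, among the 10 genes and among the other pathway genes in limma under every alternative, the fit with the replicate number as a block included, which changed no call (0 called). The block fit holds the 12 arrays of the shared numbers and so leaves out control replicate 5; it had 310 probe sets at an unadjusted p under 0.05, against 475 without that array and no block, and 348 on all 13. The deviations of same-numbered samples from their group means correlated above 0.1 for 1 of 6 numbers, with values from -0.34 to 0.19. With 1 pair of samples for each number, this cannot settle whether the numbers pair the samples. The number of target pairs past the threshold was 7 to 10 under the alternatives other than single arrays left out and 6 to 10 with 1 array left out. The pairs of receptors and cofactors with targets past the threshold numbered 0 after renewed quantile normalization, cyclic loess, removal of group means and without control replicates 1 and 2 (0 each), and 0 to 1 with 1 array left out. Diet differences that turned sign were those of Fkbp4 with array weights (0.0034) and on the 12 arrays without control replicate 5 (0.011 with and without the replicate block), and of Nr3c2 (-0.058) and Ddit4 (-0.020) without control replicates 1 and 2. With 1 array left out, the diet differences ran from -0.041 to 0.011 for Fkbp4, -0.0067 to 0.17 for Nr3c2, -0.030 to 0.051 for Ddit4, -0.0062 to 0.069 for Hsd11b1 and -0.0070 to 0.12 for Klf9. The r of Nr3c1 with Sgk1 (-0.059) and with Errfi1 (-0.031) turned with group means removed. With 1 array left out r ran from -0.25 to 0.20 for Nr3c1 with Sgk1, -0.21 to 0.41 with Errfi1, -0.060 to 0.45 with Tsc22d3, -0.20 to 0.30 with Fkbp5 and -0.36 to 0.19 with Ddit4, from -0.42 to 0.22 for Nr3c2 with Klf9 and from -0.0068 to 0.26 for Fkbp5 with Klf9. The cause was not tested. The table has no detection calls, so signal over background limits the dim genes.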

Other observations

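Txnip, a glucocorticoid-responsive gene of the further targets that is also induced by glucose, had its highest values in the brains with the lowest Klf9. It stood at 9.81 in fructose replicate 4, where Klf9 was at its fructose minimum of 9.05, and at 9.86 in control replicate 8, where Klf9 was at its control minimum of 9.25. The same brains held the highest means of the leptomeninges and fibroblast markers in their groups, 8.82 and 8.68. Zbtb16 was lowest in control replicate 8 (8.61) and in fructose replicate 3 (9.05), and at 9.45 or more in the other brains, so its low values did not fall in the same brains as those of Sgk1. Hsp90ab1, the abundant Hsp90 gene of the receptor complex, had its fructose minimum of 12.28 in fructose replicate 1, the brain with the highest Sgk1, Tsc22d3, Errfi1 and Ddit4. These values were picked after they were seen, and no test was made of them.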
